A study of Mus musculus with 30 samples.

Results

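The genes described are 42 DNA repair genes of the mouse, chosen by name from the 48709 genes of the deposited expression table and sorted by repair pathway. They form 3 classes: 17 genes of crosslink repair and homologous recombination, 8 genes that sense DNA breaks and signal them, and 17 genes of nucleotide excision, base excision, mismatch repair and end joining. C2C12, an established mouse line of muscle progenitor cells, was switched from growth medium to differentiation medium with horse serum, in which the cells leave the cell cycle and fuse into myotubes. The differentiation medium held potassium chromate, a source of hexavalent chromium, Cr(VI), at 0, 2 or 5 µM, and RNA was sequenced on days 1, 2 and 4 at each dose and on day 0 at 0 µM, which gave 10 groups of 3 libraries. The 0 µM group of the same day, in the same medium, was the control of each dose. The labels call the 3 libraries of a group biological replicates and do not say whether they came from separate cultures, so the p-values measure the spread between these libraries.

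The Fanconi anaemia proteins repair crosslinks that join the strands of DNA. A core complex (with Fanca, Fancb, Fancg and the DNA translocase Fancm) attaches ubiquitin to the pair Fancd2 and Fanci, and the damage is then passed to homologous recombination, which copies the lost sequence from the sister chromatid and is used in dividing cells. Excision pathways cut out damaged bases or short stretches from a single strand, mismatch repair corrects replication errors, and end joining seals broken ends without a template, also in cells that no longer divide. Cr(VI) is reduced inside cells and is known to leave chromium adducts, oxidised bases and strand breaks in DNA.

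Levels are given as scaled CPM, the deposited counts normalised to library size after a further scaling of each library, and they are not corrected for gene length, so they are compared between libraries and not between genes. A difference is the difference of group means of log2(scaled CPM + 1), which understates the change of low genes, and it is followed by its standard error. A gene is said to be higher, lower, raised or to have fallen where the Benjamini-Hochberg adjusted p of the limma test over 12946 genes was below 0.05. All 42 genes passed the filter on low values. The libraries held 18.5 to 26.9 M reads, and 1 read was worth 0.038 to 0.0584 scaled CPM. Low values scattered beyond counting error: a gene with 11 to 20 reads in a library was listed at 0 in another replicate of its group in 31.4% of pairs. In bulk RNA, fewer cells that express a gene and less of its RNA per cell cannot be told apart.

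Muscle marker genes were present in every library, with sums over 10 markers of 1000 to 18400 scaled CPM. A pair of day 1 libraries stood apart. The sum of 8 adipocyte markers was 3930 in replicate 1 of the 2 µM group and 13.6 to 73.1 in every other library. The sum of 7 lung epithelium markers was 379 in replicate 3 of the 5 µM group and at most 0.941 elsewhere, and that of the leukocyte markers was 309 against at most 5.08. Counts of day 1 with Cr(VI) are given with and without both libraries.

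Without Cr(VI), the crosslink and recombination genes fell as the cells differentiated. From day 0 to day 1, 16 of these 17 genes were lower and 0 higher, with a median difference of -1.58, where 22.7% of all genes tested were lower and 25.4% higher. By day 4, 16 of 17 were again lower, with a median of -2.10, where 29.5% of all genes were lower and 30.3% higher. All 8 sensing genes were lower at both times (medians of -1.05 and -1.33). Of the 17 excision, mismatch and joining genes, 6 were lower and 3 higher on day 1 (median -0.27), and 9 were lower and 3 higher on day 4 (median -0.50), and the median over all genes on day 4 was 0.01. The genes that did not follow the general fall included the damage recognition factors Xpc and Xpa of nucleotide excision, which were raised by 0.89 ± 0.19 and 0.59 ± 0.20 on day 4 (limma adjusted p = 1.1e-04 and 0.013). The Xpa call was lost without replicate 3 of day 0 (0.51, 0.052) or of day 4 (0.40, 0.11). Xrcc5, the Ku80 subunit that binds broken ends, rose by 0.76 ± 0.10 on day 1 and was then lower by day 4, at -0.80 ± 0.10 against day 0. Fancg was the crosslink gene not called at either time, with -0.45 ± 0.38 on day 4. The sum of the 16 crosslink and recombination genes other than Rbbp8 was 308 ± 32.9 scaled CPM (SD, n = 3) on day 0 and 57.9 ± 6.91 on day 4. All 20 mitosis genes and all 22 DNA replication genes on separate lists were lower in the same 2 comparisons, and their part in the fall of the repair genes was not tested.

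With 5 µM Cr(VI), a larger share of the crosslink and recombination members than of the excision, mismatch and joining members was lower on days 2 and 4. The members were chosen with earlier results of these data known. Among further genes of these pathways on day 4, 21.4% of crosslink and 43.8% of recombination genes were lower. The shares lower among further genes of excision, mismatch repair and end joining were 31.2% to 50%. On day 2, 10 of the 17 crosslink and recombination genes (58.8%) were lower than in the control and 1 was higher, where 13.4% of all genes tested were lower and 10.2% higher. Their median difference was -1.53, and that over all genes was -0.01. Of the 17 excision, mismatch and joining genes, 5 (29.4%) were lower and 1 higher on day 2, with a median of -0.10. Without replicate 3 of the 5 µM group, 1 of these 17 was lower on day 2. On day 4, 10 of 17 crosslink and recombination genes were lower and 1 higher, with a median of -1.08, where 28.6% of all genes were lower and 27.3% higher. The excision, mismatch and joining genes had 5 of 17 lower, 29.4%, a share near that of all genes, and 2 higher, with a median of -0.13. The 8 sensing genes had 4 lower on day 2 (median -0.51), and 4 lower and 1 higher on day 4 (median -0.50). On day 1, 0 crosslink and recombination genes were called in either direction and 2 excision and joining genes were lower and 1 higher, where 9.41% of all genes were lower and 4.29% higher. At an unadjusted limma p below 0.05, 4 crosslink and recombination genes lay lower and 0 higher on day 1, and edgeR and DESeq2 called 0 of them.

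**Figure D1:**
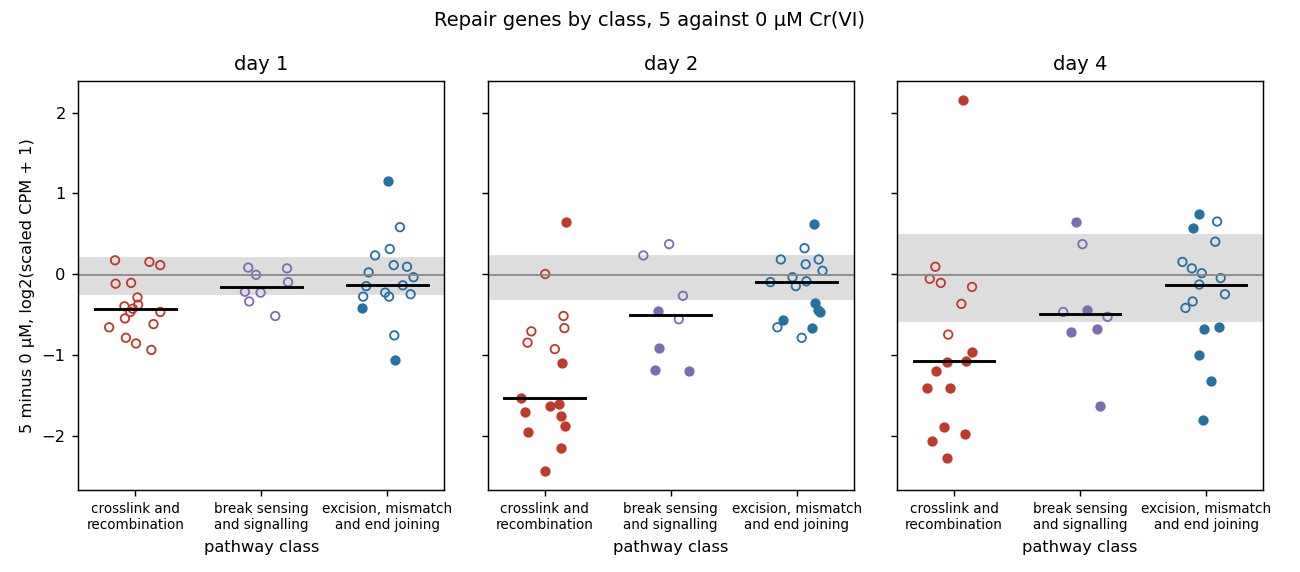
Differences of the 42 repair genes between 5 and 0 µM Cr(VI) in log2(scaled CPM + 1), by pathway class, on days 1, 2 and 4. Each point is a gene, filled where called at an adjusted p below 0.05, the black bar is the class median, and the grey band and line are the quartiles and the median of all genes tested. The class median of the crosslink and recombination genes lies at -1.53 on day 2 and -1.08 on day 4, and the single high point of that class is Rbbp8.

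Promoters of class members were looked up, since 10 of 17 crosslink and recombination genes were lower on day 2 and 10 on day 4. These were not all the same genes, as Rad54b was called on day 2 only and Blm on day 4 only. Windows from 250 bases before to 50 after the RefSeq start site (GRCm38.p6) were found for 32 of the 42 genes. The CCAAT box (CCAAT on either strand) was present in 69.2% of 13 crosslink and recombination genes, in 71.4% of 14 excision, mismatch and joining genes, and in 41.1% of all genes with a window. E2F-type letters (TTTCCCGC, TTTGGCGC, TTTCGCGC or TTTGCCGC, on either strand) were in 23.1% (3 of 13), 14.3% (2 of 14) and 2.6%. The cell-cycle homology element (TTTGAA or TTCGAA, on either strand) was in 7.69%, 7.14% and 21.7%. The 3 crosslink and recombination genes with E2F-type letters were Fancg, Brca2 and Bard1. Of these, Brca2 was lower at 5 µM than in the control, and Fancg and Bard1 were not called. The 2 excision, mismatch and joining genes with these letters were Msh6 and Xrcc6, both lower on day 2. Of 5 sensing genes with a window, 1 (Chek2) held them. None of these motifs contains another. The 120 bases before the start sites of 3 genes, printed 5′ to 3′ on the strand of the gene with CCAAT or its complement ATTGG in capitals, show that a gene that fell and a gene that was not called can carry the same boxes. Brip1 (chr11:86201194-86201313, minus strand) and Rad51ap1 (chr6:126939588-126939707, minus strand) are recombination genes that were lower on days 2 and 4, and Ercc2 (chr7:19381897-19382016, plus strand) is an excision gene that was not called on any day.
Brip1: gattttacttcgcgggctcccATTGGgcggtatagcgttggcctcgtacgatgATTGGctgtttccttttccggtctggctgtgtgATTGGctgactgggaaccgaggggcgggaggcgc
Rad51ap1: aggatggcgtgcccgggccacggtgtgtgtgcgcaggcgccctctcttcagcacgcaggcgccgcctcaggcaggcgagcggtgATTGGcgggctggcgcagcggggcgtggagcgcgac
Ercc2: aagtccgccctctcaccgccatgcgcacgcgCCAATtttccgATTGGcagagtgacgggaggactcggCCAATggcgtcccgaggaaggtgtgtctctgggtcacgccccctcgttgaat
Brip1 and Ercc2 hold 3 boxes each in this stretch and Rad51ap1 holds 1. A match of letters is a description and no evidence of binding.

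Fancd2, which with Fanci forms the clamp that marks a crosslink for repair, all but left the table at 5 µM. Its level was 24.3, 21.8 and 26.7 scaled CPM on day 0. In the control it was 9.1, 9.33 and 5.3 on day 1, 8.18, 9.92 and 9.24 on day 2, and 3.27, 4.71 and 3.95 on day 4. At 5 µM it was 5.89, 3.56 and 5.66 on day 1, 1.18, 0.72 and 0.705 on day 2, and 0.0471, 0 and 0 on day 4. The 5 µM libraries of days 2 and 4 all lay below every control library of their day, and those of day 1 overlapped the control. With 2 µM it was at 3.6, 6.13 and 5.42 on day 1, 6.33, 3.61 and 3.3 on day 2, and 2.29, 2.17 and 1.8 on day 4, between the other doses on days 2 and 4. The 5 µM difference was -0.55 ± 0.26 on day 1 (limma adjusted p = 0.17), -2.44 ± 0.26 on day 2 (5.0e-09) and -2.28 ± 0.26 on day 4 (4.2e-09). On day 4 the 3 libraries at 5 µM together held 1 Fancd2 read and the controls 243, so that the level was 0.426% of the control, with an exact 95% interval of 0.0107 to 2.4% for counting error only.

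Fanci, the partner of Fancd2, was at 3.87, 4.51 and 4.64 scaled CPM in the day 4 controls and at 0.894, 0.579 and 0 with 5 µM. The groups did not overlap, and Fanci fell by 1.89 ± 0.33 on day 4 (limma adjusted p = 8.9e-06), after -1.61 ± 0.33 on day 2. On the reference annotation (GENCODE M21) 13.4% of its exon bases overlap Polg on the opposite strand, and whether reads were counted by strand is not given in the sources used here. Polg fell by 0.38 on day 4.

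Fanca, a subunit of the core complex, was at 2.61, 1.82 and 1.53 scaled CPM in the day 4 controls and at 0.188, 0 and 1.87 with 5 µM. A 5 µM library reached the control range on day 4, and Fanca was lower there by -0.97 ± 0.32 (limma adjusted p = 0.011). This call was lost without control replicate 1 (-0.83, adjusted p = 0.055), without replicate 1 at 5 µM (-0.80, 0.062) and without replicate 2 at 5 µM (-0.68, 0.1). On day 2 the groups were apart, at 2.55, 3.52 and 3.85 against 0.481, 0.2 and 0.485, with a difference of -1.63 ± 0.32 (2.4e-04). The other core subunits Fancb and Fancg and the translocase Fancm were not called on any day at either dose, with day 4 differences at 5 µM of -0.06, -0.16 and 0.09. The Fanconi list thus had 3 of 6 genes lower on day 2 and 3 on day 4, beside 13.4% and 28.6% of all genes. Of these, Fanca on day 4 was not called in edgeR (-1.59, adjusted p = 0.053).

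Among the recombination genes, Rad54l, a motor protein that helps strand invasion of the sister chromatid, was at 4.22, 3.34 and 3.67 scaled CPM in the day 4 controls, at 0.872, 1.03 and 1.18 with 2 µM, and at 0.424, 0 and 0 with 5 µM. The doses were ordered with no overlap between the groups. Rad54l fell by 1.96 ± 0.31 on day 2 and by 2.07 ± 0.31 on day 4 at 5 µM (limma adjusted p = 9.9e-06 and 9.2e-07).

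Brca1, the ubiquitin ligase that directs breaks towards recombination, was at 9.04, 9.28 and 9.74 scaled CPM in the day 2 controls and at 2.32, 2.12 and 2.03 with 5 µM. On day 4 it was at 6.98, 3.09 and 4.83 in the controls and at 0.424, 0.338 and 0.642 with 5 µM. Every 5 µM library lay below every control library on both days, with differences of -1.71 ± 0.34 and -1.98 ± 0.34 (limma adjusted p = 2.0e-04 and 7.1e-06). The 2 µM libraries of day 4 held 6.19, 3.42 and 2.46, which overlapped the controls.

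Further recombination genes were lower with 5 µM on both days: the helicase Brip1 (-1.76 ± 0.34 and -1.41 ± 0.34), the strand exchange factor Rad51ap1 (-2.15 ± 0.35 and -1.41 ± 0.35), the recombination mediator Brca2 (-1.10 ± 0.35 and -1.20 ± 0.35) and the nuclease Exo1 (-1.88 ± 0.36 and -1.08 ± 0.36). Rad54b, a relative of Rad54l, was lower on day 2 (-1.53 ± 0.33) and was not called on day 4 (-0.37 ± 0.33). Of its exon bases, 39.1% overlap Fsbp on the same strand, which was not called on either day (0.22 ± 0.48 and -0.69 ± 0.48). The helicase Blm had -0.67 ± 0.38 on day 2 (limma adjusted p = 0.21) and was lower on day 4 (-1.09 ± 0.38, 0.014). Bard1, the partner of Brca1, and Palb2, which links Brca1 to Brca2, were not called on any day at 5 µM. Calls of this group that rest on single libraries were Blm on day 4, lost without control replicate 3 (-0.95, adjusted p = 0.058) or 5 µM replicate 3 (-0.94, 0.064), and Exo1 on day 4, lost without the same libraries (-0.81, 0.084, and -0.93, 0.053). The call of Brca2 on day 2 was lost without control replicate 1 or 2 (-1.07, 0.059, and -1.05, 0.063) and without 5 µM replicate 2 or 3 (-1.06, 0.059, and -0.86, 0.12). It was also lost in edgeR (-1.32, adjusted p = 0.061).

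Rbbp8, also known as CtIP, which starts the trimming of broken ends that recombination needs, went against its list. It was at 54.3, 47.8 and 49 scaled CPM on day 0, and fell in the control to 21.3, 21.3 and 28.4 on day 1, 19.1, 22.5 and 18.2 on day 2, and 10.3, 6.43 and 14.2 on day 4. With 5 µM it was at 26.6, 27 and 25.8 on day 1, 33.8, 34.2 and 27.2 on day 2, and 52.3, 42 and 49 on day 4. The 5 µM libraries lay above every control library on days 2 and 4 and within the control range on day 1. The difference was 0.17 ± 0.20 on day 1 (limma adjusted p = 0.65), 0.64 ± 0.20 on day 2 (0.015) and 2.16 ± 0.20 on day 4 (2.9e-11). With 2 µM on day 4 it was at 8.49, 9.38 and 15.5, which overlapped the control. The day 2 call was lost without control replicate 1 or 3 (0.61, 0.053, and 0.58, 0.067) and without 5 µM replicate 1 or 2 (0.59, 0.063, and 0.59, 0.062).

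**Figure D2:**
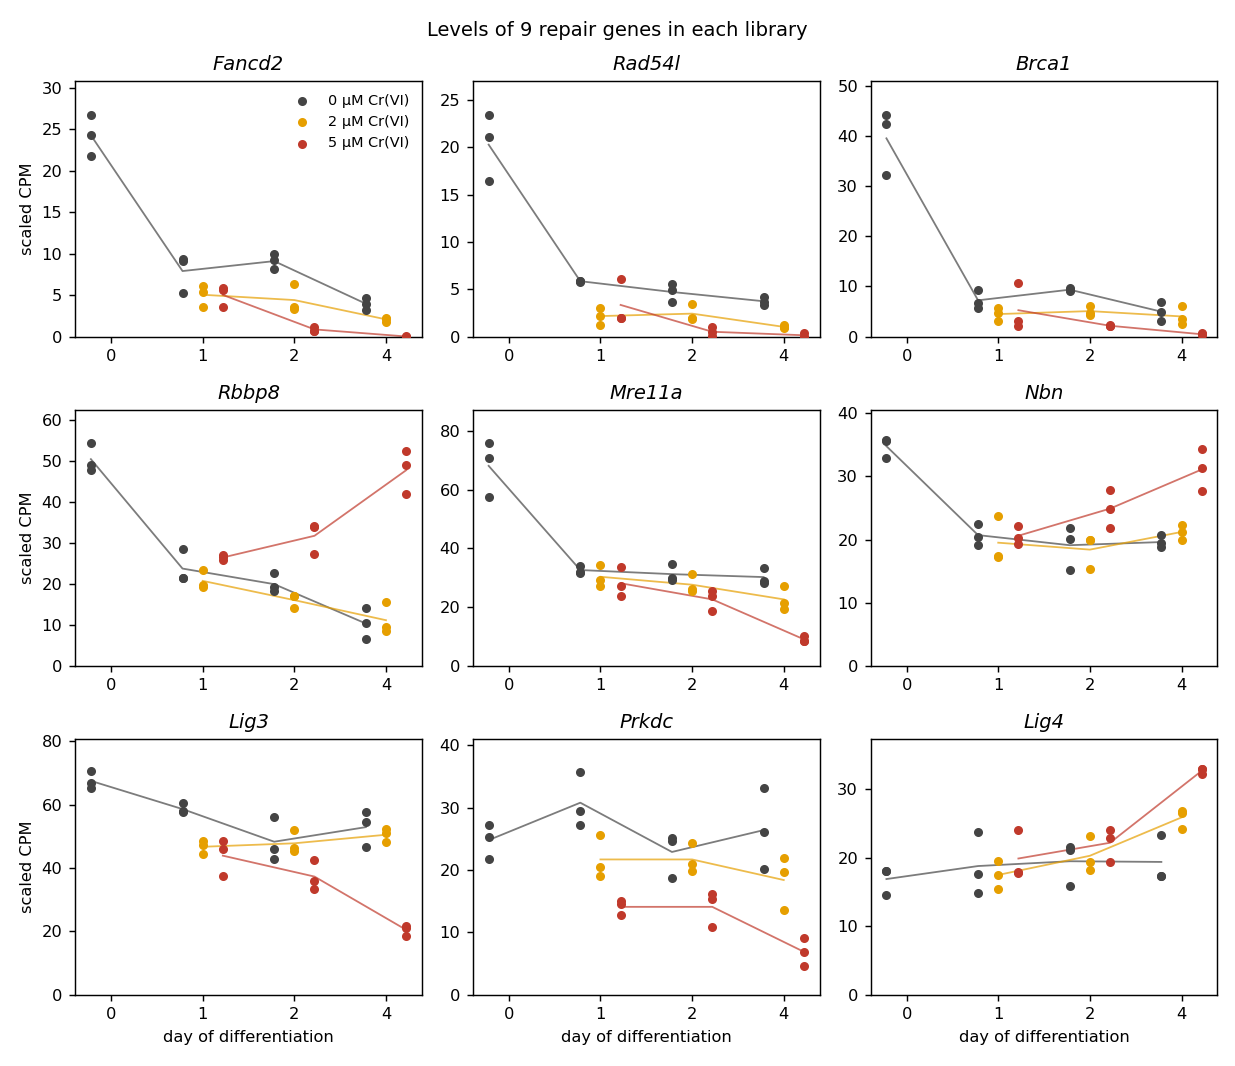
Levels of 9 repair genes in scaled CPM by day of differentiation, with 1 point per library, lines through the group means, and colours for 0, 2 and 5 µM Cr(VI). Each panel has its own vertical scale from 0. Fancd2, Rad54l, Brca1, Mre11a, Lig3 and Prkdc lie below the control on day 4 at 5 µM, and Rbbp8, Nbn and Lig4 above it.

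The sensing genes include Mre11a, Rad50 and Nbn, which together form the complex that first binds a break. Mre11a, its nuclease, was at 33.4, 28.2 and 28.9 scaled CPM in the day 4 controls and at 10.2, 8.35 and 8.41 with 5 µM. The groups were far apart, and Mre11a fell by 1.64 ± 0.15 on day 4 (limma adjusted p = 5.7e-11). On day 2 its difference was -0.46 ± 0.15 (0.028), a call lost without control replicate 2 (-0.39, 0.13) or 5 µM replicate 3 (-0.34, 0.17).

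Nbn, the subunit that recruits the kinase Atm, was at 20.7, 18.8 and 19.4 scaled CPM in the day 4 controls and at 31.3, 27.7 and 34.4 with 5 µM. It rose by 0.64 ± 0.15 with no overlap (limma adjusted p = 7.0e-04), opposite to the other members of the complex. Rad50, the subunit that tethers the ends, was lower by -0.44 ± 0.16 on day 4 (0.022), and this call was lost without control replicate 1 or 2 (-0.40, 0.07, and -0.42, 0.057) or 5 µM replicate 1 (-0.40, 0.069).

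The kinase Atr, which answers stalled replication, was at 18.3, 15.5 and 13.5 scaled CPM in the day 4 controls and at 10.5, 6.32 and 11.3 with 5 µM, with a difference of -0.72 ± 0.19 and no overlap (limma adjusted p = 0.0013). Atm, the kinase that answers breaks, was at 17.4, 15.2 and 32.5 in the controls and at 13.7, 15.5 and 8.99 with 5 µM. Its groups overlapped, and the difference of -0.68 ± 0.23 (0.012) was not called without control replicate 3 (-0.36, 0.18) or 5 µM replicate 3 (-0.47, 0.11).

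The checkpoint kinases Chek1 and Chek2 and the histone variant H2afx, which is phosphorylated around breaks, were lower on day 2 and not called on day 4. Chek1 had -1.20 ± 0.35 on day 2 and 0.37 ± 0.35 on day 4 (limma adjusted p = 0.011 and 0.39), H2afx had -1.19 ± 0.26 and -0.53 ± 0.26 (5.7e-04 and 0.08), and Chek2 had -0.92 ± 0.33 and -0.47 ± 0.33 (0.04 and 0.24). Of the exon bases of H2afx, 10.2% overlap Gm44335 on the opposite strand. The day 2 call of Chek1 was lost without control replicate 2 (-1.04, 0.063) or 5 µM replicate 1 (-1.02, 0.069). That of Chek2 was lost when any of the libraries compared was left out except 5 µM replicate 3, with -0.70 to -0.95. Chek2 was also not called on day 2 in edgeR (-1.03, adjusted p = 0.074) or DESeq2 (-1.04, 0.058).

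Of the 6 nucleotide excision genes, 0 were lower with 5 µM on any day in limma, edgeR or DESeq2. Of all genes tested, 9.41%, 13.4% and 28.6% were lower in limma on days 1, 2 and 4. At an unadjusted limma p below 0.05, 1 nucleotide excision gene (Ercc2, on day 2) lay lower. Xpc, which recognises distorted DNA, was at 18.3, 11.9 and 17.7 scaled CPM in the day 4 controls and at 23.4, 27.8 and 20.4 with 5 µM, above every control library. It was higher by 0.62 ± 0.19 on day 2 and 0.57 ± 0.19 on day 4 (limma adjusted p = 0.013 and 0.011). The day 4 call was lost without control replicate 2 (0.38, 0.11) or 5 µM replicate 2 (0.45, 0.069), and the day 2 call without control replicate 1 (0.54, 0.069) or 5 µM replicate 1 (0.53, 0.08). Ddb2, a damage sensor, was higher on day 1 by 1.15 ± 0.37 (0.032), at 3.37, 1.84 and 3.13 against 1.2, 0.879 and 0.126, and was not called on days 2 and 4. That call was lost without both libraries that stood apart (1.08, 0.058), without control replicate 2 (1.24, 0.052) or 3 (0.87, 0.19) and without 5 µM replicate 1 (1.04, 0.1) or 3 (1.08, 0.085), and 26.7% of the exon bases of Ddb2 overlap Acp2 on the opposite strand. Neither edgeR (1.92, adjusted p = 0.23) nor DESeq2 (1.93, 0.11) called Ddb2 on day 1. The scaffold Xpa, the nuclease subunits Ercc1 and Ercc4 and the helicase Ercc2 were not called on any day, with day 4 differences of 0.07, 0.15, -0.05 and -0.34. Of the exon bases of Ercc2, 18.1% overlap Gm26852 and 16.4% overlap Klc3, both on the opposite strand.

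Among the 6 genes of base excision and single-strand break repair, Lig3, the ligase that seals the nick, was at 46.5, 54.4 and 57.7 scaled CPM in the day 4 controls, at 51.1, 52.2 and 48.1 with 2 µM, and at 21, 18.5 and 21.8 with 5 µM. The 5 µM libraries were all below every other library of the day, and Lig3 fell by 1.32 ± 0.12 (limma adjusted p = 1.7e-11). It was also lower on day 1 (-0.42 ± 0.12, 0.015) and day 2 (-0.36 ± 0.12, 0.023). The day 1 call was lost without control replicate 2 (-0.39, 0.055) or 5 µM replicate 1 (-0.31, 0.12), and the day 2 call without control replicate 2 (-0.25, 0.18) or 5 µM replicate 1 or 3 (-0.34, 0.08, and -0.29, 0.12). Of its exon bases, 27.9% overlap Rffl on the opposite strand, which was higher on day 4 (1.11 ± 0.29).

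Parp1, which detects nicks and builds poly(ADP-ribose) on nearby proteins, was at 69.1, 68.3 and 69.4 scaled CPM in the day 4 controls and at 45.5, 45.2 and 38 with 5 µM. It fell by 0.68 ± 0.12 with no overlap (limma adjusted p = 1.9e-05), after -0.47 ± 0.12 on day 2 (0.0042), which was lost without 5 µM replicate 3 (-0.33, 0.065). The glycosylases Ogg1 and Mutyh, which act on oxidised guanine and its mispairs, the endonuclease Apex1 and the scaffold Xrcc1 were not called on any day at 5 µM with all libraries, with day 4 differences of -0.42, -0.13, 0.01 and 0.40. On the annotation, 70.8% of the exon bases of Apex1 overlap Pip4p1 on the opposite strand. Msh6, which recognises mismatches, was lower on day 2 (-0.44 ± 0.15, 0.026) and was not called on day 4 (-0.25 ± 0.15, 0.14). The call of Msh6 was lost without control replicate 1 or 3 (-0.45, 0.056, and -0.39, 0.1) or 5 µM replicate 2 or 3 (-0.44, 0.057, and -0.31, 0.18).

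The end-joining genes did not move together on day 4, when 3 of 4 were lower and 1 was higher, beside 28.6% and 27.3% of all genes. Prkdc, the kinase that holds the broken ends, was at 26.1, 20.1 and 33.1 scaled CPM in the day 4 controls and at 6.87, 4.68 and 9.11 with 5 µM. It was lower on all 3 days, by -1.07 ± 0.21 on day 1, -0.67 ± 0.21 on day 2 and -1.81 ± 0.21 on day 4 (limma adjusted p = 3.6e-04, 0.017 and 5.2e-09), with no overlap on any of them. The day 2 call was lost without control replicate 1 or 3 (-0.61, 0.07, and -0.60, 0.078) or 5 µM replicate 3 (-0.51, 0.12).

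Xrcc6, the Ku70 subunit, was at 39.7, 40 and 35.8 scaled CPM in the day 4 controls and at 18.4, 17 and 20.9 with 5 µM, a fall of 1.00 ± 0.14 with no overlap (limma adjusted p = 3.7e-07), after -0.57 ± 0.14 on day 2 (0.0031). Its partner Xrcc5 was lower on day 4 (-0.65 ± 0.10, 8.0e-07) and had 0.12 ± 0.10 on day 2. Lig4, the ligase that completes end joining, was at 17.4, 17.4 and 23.3 in the controls and at 32.9, 33 and 32.2 with 5 µM, a rise of 0.74 ± 0.17 (4.7e-04) with all 5 µM libraries above all controls. Its 2 µM libraries lay between, at 26.5, 24.2 and 26.9, above the controls and below 5 µM, and this difference was not called (0.41 ± 0.17, 0.15).

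**Figure D3:**
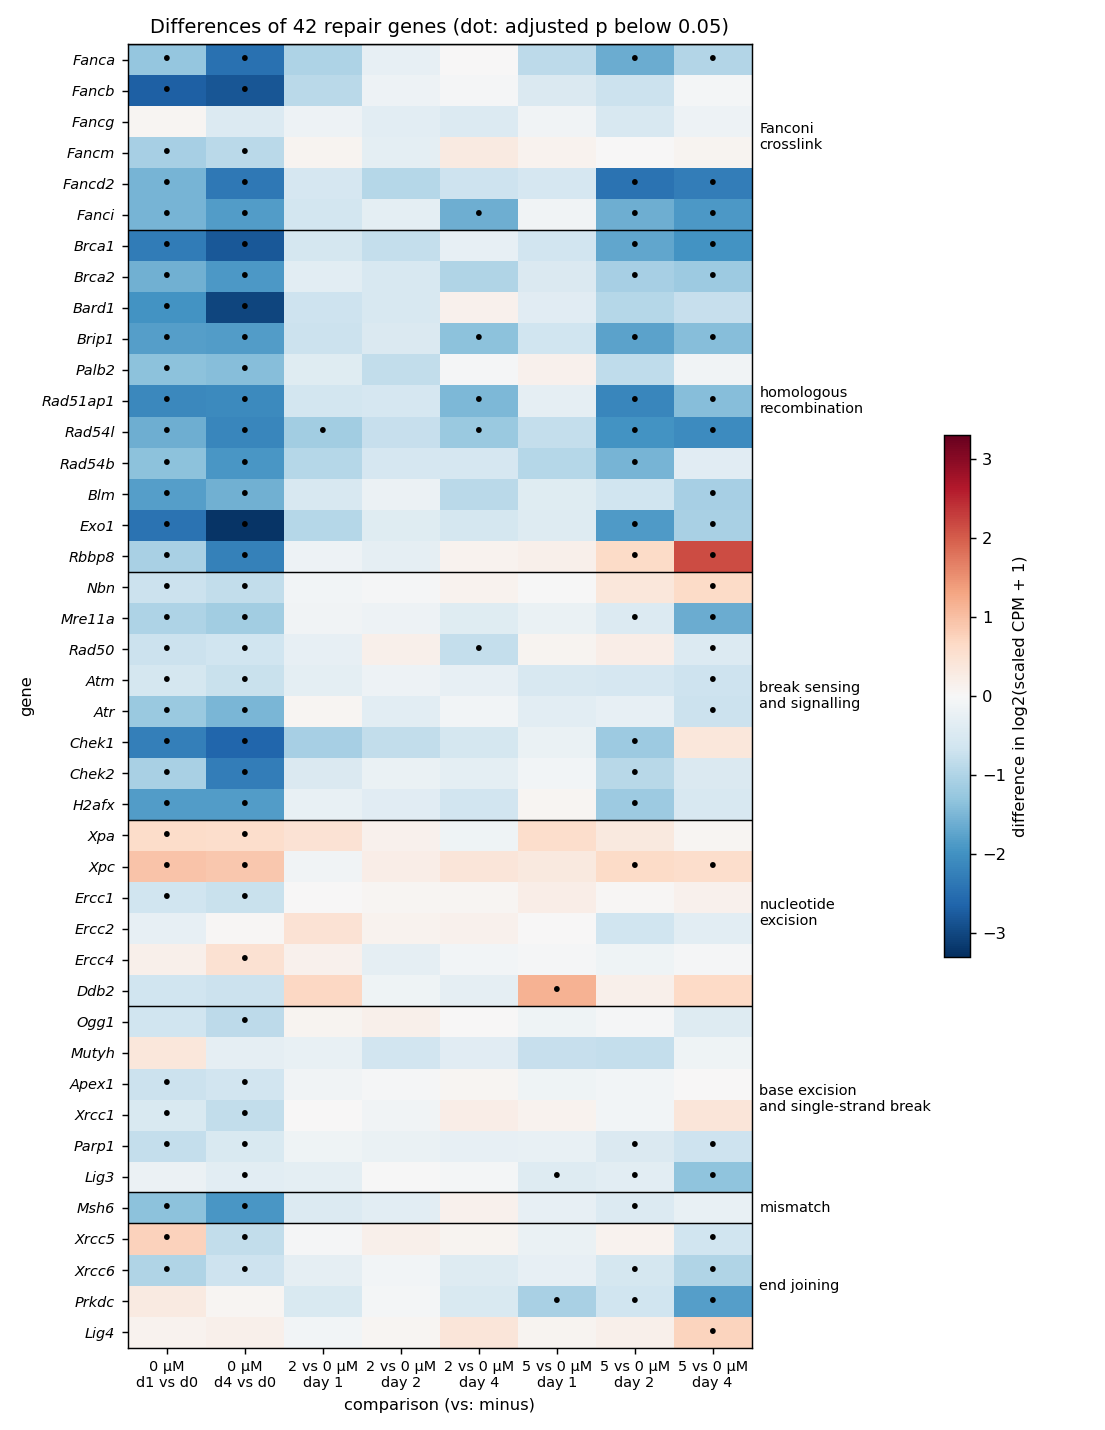
Differences in log2(scaled CPM + 1) of the 42 repair genes (rows, by pathway) in 8 comparisons (columns), blue for lower and red for higher, with a dot where the adjusted p was below 0.05. The 16 crosslink and recombination genes that fell in the control by day 4 include the 10 that were lower still at 5 µM on day 4, and Rbbp8 is the one of them that rose at 5 µM.

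On day 1, the result at 5 µM depended on replicate 3, the library with lung and leukocyte markers. In it Brca1 was at 10.6 scaled CPM against 3.11 and 2.05 in the other 5 µM libraries, Rad54l at 6.14 against 1.92 and 2, and the sum of 20 mitosis genes at 976 against 646 and 608. Without both libraries that stood apart, 5 of 17 crosslink and recombination genes were lower on day 1 in place of 0, with a median of -0.70. They were Fanca (-1.14), Brca1 (-1.19), Brip1 (-1.08), Rad54l (-1.21) and Rad54b (-1.21), with limma adjusted p from 0.0067 to 0.024. Of the 17 excision, mismatch and joining genes, 4 were then lower in place of 2, the added ones being Mutyh (-1.19, adjusted p = 0.011) and Parp1 (-0.38, 0.049), and Xpa was higher (0.68, 0.046) in place of Ddb2. In the same fit 8.79% of all genes were lower and 4.27% higher. The part of the foreign transcripts in these values was not tested.

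At 2 µM fewer repair genes were called. On day 4, 4 of 17 crosslink and recombination genes were lower and 0 higher, with a median of -0.55, where 3.74% of all genes were lower and 5.11% higher. They were Fanci (-1.61 ± 0.33), Rad51ap1 (-1.47 ± 0.35), Brip1 (-1.36 ± 0.34) and Rad54l (-1.23 ± 0.31), with limma adjusted p from 0.0011 to 0.0095. DESeq2 called 4 genes of this class lower and edgeR 2, with Rad51ap1 and Rad54l at adjusted p = 0.068 each in edgeR. Fanci was at 1.1, 1.14 and 0.189 scaled CPM, below each of the controls. Rad51ap1 was at 1.79, 0.342 and 0.0473 against 4.17, 3.04 and 3.02, and its call was lost without 2 µM replicate 3 (-1.18, adjusted p = 0.053). Of the sensing genes Rad50 was lower on day 4 (-0.79 ± 0.16, 0.0014), at 8.44, 12.1 and 13.1 against 21.1, 20.5 and 17.9. Of the 17 excision, mismatch and joining genes, 0 were called on any day at 2 µM, with medians of -0.08, -0.03 and 0.01. At an unadjusted limma p below 0.05, 3, 1 and 3 of them lay lower and 1, 0 and 2 higher on days 1, 2 and 4, and DESeq2 called 1 lower on day 4 and edgeR 0.

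On days 1 and 2 at 2 µM, 6570 and 6858 of the 12946 genes tested had a difference below 0. The crosslink and recombination genes had medians of -0.60 and -0.48, with 16 and all 17 differences below 0. The test called 1 of them on day 1, where 1.48% of all genes were lower and 0.518% higher, and 0 on day 2, where 0.247% were lower and 0.263% higher. On day 2, 4 had an unadjusted limma p below 0.05, all lower, and edgeR and DESeq2 called 0. The gene called on day 1 was Rad54l (-1.16 ± 0.31, limma adjusted p = 0.042), at 2.22, 1.26 and 3.03 scaled CPM against 5.9, 5.81 and 5.89. This call was lost without any of the control libraries (adjusted p = 0.12 to 0.13) and without 2 µM replicate 1 or 2 (0.14 and 0.15). Without both libraries that stood apart, Rad54l had -1.19 ± 0.31 (0.061), and 0 of the 17 were called on day 1, with a median of -0.61, where 0.672% of all genes were lower and 0.216% higher. The excision, mismatch and joining genes then again had 0 called, with a median of -0.02. The sum of the 16 genes other than Rbbp8 was 60.1%, 66.3% and 62.7% of the control on days 1, 2 and 4 at 2 µM, and the sum of the excision, mismatch and joining genes was 92.0%, 97.9% and 97.8%. With Rbbp8, which was left out after its values were seen, the crosslink and recombination sum was 66.3%, 68.7% and 69.6%. The comparisons of both doses share their controls.

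Compared directly on day 4, 5 of 17 crosslink and recombination genes were lower at 5 than at 2 µM and 1 was higher, where 24.8% of all genes were lower and 22.8% higher, so that the share of lower genes, 29.4%, was near that of all genes. The lower ones were Fancd2 (-1.60 ± 0.26), Brca1 (-1.71 ± 0.34), Fanca (-0.99 ± 0.32), Bard1 (-0.89 ± 0.37) and Rad54l (-0.85 ± 0.31), and Rbbp8 was the higher one (2.05 ± 0.20). Leaving out single libraries ended the calls of Bard1 (2 µM replicate 1 or 2, 5 µM replicate 2 or 3, limma adjusted p = 0.059 to 0.44), Fanca (2 µM replicate 3, 5 µM replicate 1 or 2, 0.053 to 0.11) and Rad54l (replicate 2 or 3 of either dose, 0.053 to 0.082). The excision, mismatch and joining genes had 6 of 17 lower (35.3%) and 1 higher. Among them Lig3 differed by -1.26 ± 0.12, Prkdc by -1.32 ± 0.21 and Xrcc5 by -0.74 ± 0.10. Fanci, Rad51ap1 and Brip1 did not differ detectably between the doses on day 4, at -0.28 ± 0.33, 0.06 ± 0.35 and -0.05 ± 0.34. The median level of the crosslink and recombination genes on day 4 was 1.94 scaled CPM at 2 µM and 1.06 at 5 µM. At such levels log2(scaled CPM + 1) understates a further fall, so genes not called here could still differ between the doses.

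The change of the 5 µM difference from day to day was tested as a difference of differences. From day 1 to day 2, 3 of 17 crosslink and recombination genes moved lower and 0 higher, where 2.76% of all genes moved lower and 3.04% higher, and 0 of 17 excision, mismatch and joining genes were called. The 3 crosslink and recombination genes were 1 without both day 1 libraries that stood apart (2.59% of all genes lower, 2.67% higher), 1 in edgeR, 5 in DESeq2, and 1 to 4 with single libraries left out. From day 2 to day 4, 0 crosslink and recombination genes moved lower and 1, Rbbp8, moved higher, where 11.2% of all genes moved lower and 12.5% higher. Here Fancd2 had 0.16 ± 0.37 in limma (adjusted p = 0.81), and the count tests turned its direction, with -4.12 in edgeR (3.4e-04) and -4.42 in DESeq2 (0.004). On day 4 Fancd2 held 1 read at 5 µM and 243 in the controls, and log2(scaled CPM + 1) understates falls to such levels. Over the same step 3 excision and joining genes moved lower, Lig3, Xrcc5 and Prkdc, with 0 higher, as did the sensing genes Mre11a and Rad50, while Chek1 moved higher.

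**Figure D4:**
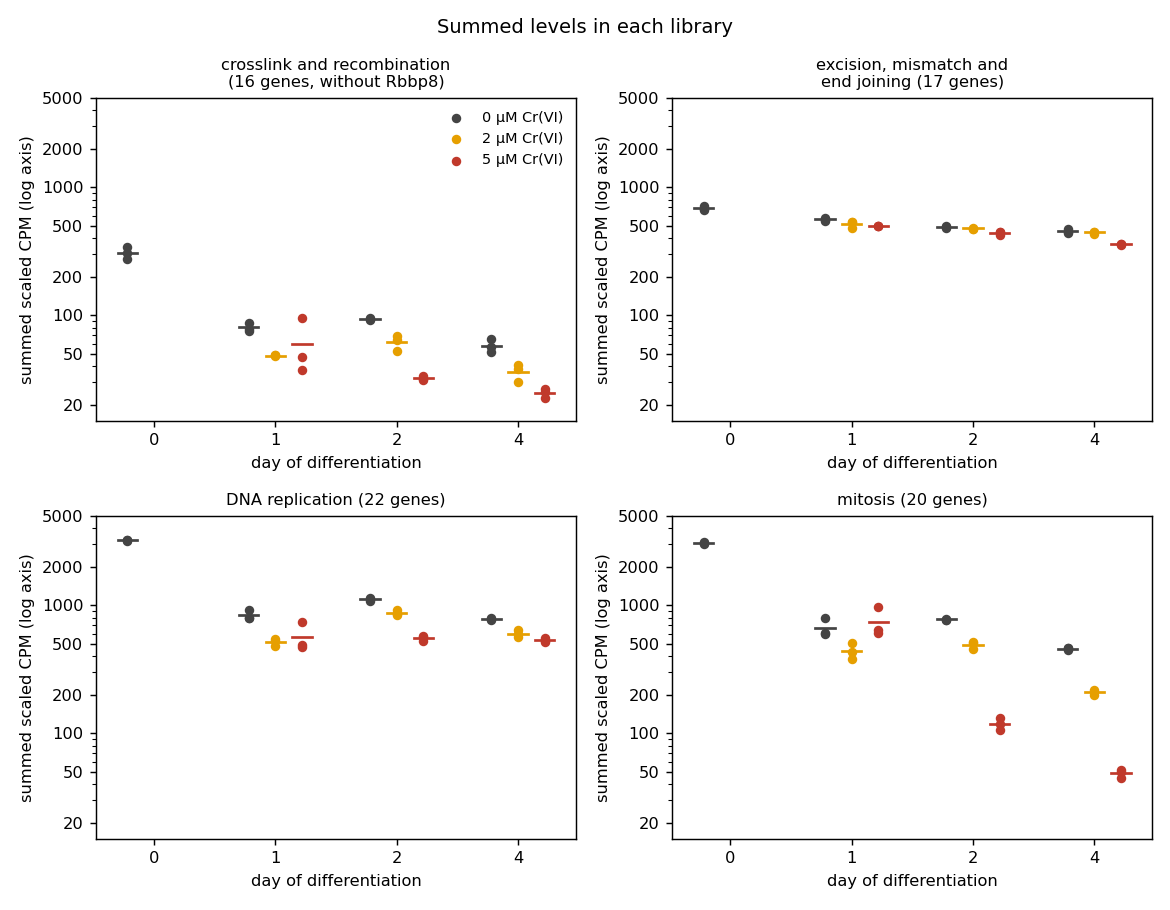
Summed scaled CPM per library (points, with a bar at the group mean) of 16 crosslink and recombination genes without Rbbp8, of 17 excision, mismatch and joining genes, of 22 DNA replication genes and of 20 mitosis genes, by day and dose, on log axes with the same range. On day 4 the sum of these 16 crosslink and recombination genes is 24.8 at 5 µM and 57.9 in the control, and the mitosis sum is 49.0 and 459. With Rbbp8, which was left out after its values were seen, the sum of 17 genes on day 4 is 72.6 at 5 µM and 68.2 in the control, with overlapping groups.

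The sum of the 16 crosslink and recombination genes, from which Rbbp8 was left out after its values were seen, was 93.2 ± 1.62 scaled CPM in the control and 32.3 ± 1.04 at 5 µM on day 2, and 57.9 ± 6.91 and 24.8 ± 2.02 on day 4 (SD, n = 3). The 5 µM sums were 34.7% and 42.9% of the control, with no overlap between libraries on either day. With Rbbp8 included, the sum on day 2 was 113 ± 1.09 in the control and 64.1 ± 4.24 at 5 µM, which is 56.6% of the control. The sum of all 17 on day 4 was 68.2 ± 10.7 in the control and 72.6 ± 6.03 at 5 µM, and the groups overlapped. The excision, mismatch and joining genes summed to 488 ± 8.41 and 443 ± 12.9 on day 2, and to 455 ± 19.8 and 361 ± 3.42 on day 4, which was 90.7% and 79.3% of the control.

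Most genes of cell division on the separate lists were also lower at 5 µM on days 2 and 4. The mitosis sum was 15.3% of the control on day 2 and 10.7% on day 4, beside 34.7% and 42.9% for the 16 crosslink and recombination genes. All 20 mitosis genes were lower at 5 µM on days 2 and 4, and their sum on day 4 was 450 to 465 scaled CPM in the control and 45.1 to 51.8 at 5 µM. Top2a, which untangles replicated chromosomes, differed by -4.12 ± 0.20 on day 4, and the cyclin Ccna2 by -4.08 ± 0.14. Of the 22 replication genes, 19 were lower on day 2, and 16 were lower and 1 higher on day 4. Their sum on day 4 was 775 to 798 in the control and 518 to 554 at 5 µM. The helicase subunit Mcm5 was lower (-1.80 ± 0.23), the licensing factor Cdt1 was higher (1.25 ± 0.28), and the sliding clamp Pcna was not called (0.25 ± 0.11, limma adjusted p = 0.056). At 2 µM on day 4, 13 of the mitosis genes and 9 of the replication genes were lower. On day 1 at 5 µM, 12 of the replication genes were lower, while 1 of the mitosis genes was higher and 0 were lower. Without both libraries that stood apart, 13 replication genes were lower, and 1 mitosis gene was higher and 2 were lower. The part of these lists in the repair gene results was not tested.

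Of 20 p53 target genes, 9 were higher and 5 lower at 5 µM on day 4 (45% and 25%, beside 27.3% and 28.6% of all genes). On day 2, 5 were higher and 4 lower (25% and 20%, beside 10.2% and 13.4%). On day 1, 10 were higher and 2 lower (50% and 10%, beside 4.29% and 9.41%), and without both libraries that stood apart 10 were higher and 1 lower. The cell-cycle inhibitor Cdkn1a was lower on day 4 (-0.72 ± 0.09) and the p53 ligase Mdm2 higher (0.52 ± 0.10). Perp and Trp53inp1, both linked to cell death, were higher by 2.83 ± 0.33 and 1.72 ± 0.13. Of the muscle markers, 9 of 10 were lower on day 4, with sums of 16700 to 18400 in the control and 5840 to 6770 at 5 µM. The adipocyte sum on day 4 was 13.6 to 19.2 in the control and 59.6 to 73.1 at 5 µM, with 2 of 3 genes tested higher, and the leukocyte sum was 0.0502 to 0.464 and 3.25 to 5.08, with 1 of 1 tested higher. All 7 lung markers were at 0 in the day 4 controls, and their sum reached 0.0942 at 5 µM. The part of other cell types in the repair gene results was not tested.

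Other genes of the same pathways, from separate lists, were also read at 5 µM on day 4. Of 14 further crosslink genes, 3 were lower and 4 higher. The ubiquitin ligase Fancl differed by -1.39 ± 0.26 and the core subunit Fancc by -1.32 ± 0.27. Of 16 further recombination genes tested, 7 were lower and 2 higher, among them Mus81, a nuclease that cuts joined DNA molecules, at -1.45 ± 0.23. The resolvase Gen1 was lower too, from a mean of 2.58 scaled CPM to 0.11. Of 12 further sensing and checkpoint genes, 3 were lower and 4 higher, and the kinase Wee1, which delays mitosis, was raised by 3.19 ± 0.15, from a mean of 11.4 to 111. Claspin (Clspn), which helps activate Chek1, was lower by -1.98 ± 0.36.

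Of 16 further nucleotide excision genes, 5 were lower and 4 higher, and Mnat1, a subunit of the kinase module of TFIIH, had -1.04 ± 0.13. Of 16 further base excision genes tested, 8 were lower and 0 higher, among them the glycosylase Neil1 (-1.85 ± 0.24) and Neil3, which was listed at 0 in the 3 libraries at 5 µM and at a mean of 3.46 in the control. Of 6 further mismatch genes, 2 were lower, among them Pms1 (-0.72 ± 0.28). Of 7 further end-joining genes, 3 were lower and 1 higher. The end-processing nuclease Dclre1c (Artemis) was lower by -1.15 ± 0.34, with overlapping groups, and Tdp2, which removes trapped topoisomerase II from DNA ends, was higher by 1.42 ± 0.18. Beside the 28.6% of all genes that were lower on day 4, the shares lower were 21.4% of the further crosslink genes, 43.8% of recombination, 25% of sensing, 31.2% of nucleotide excision, 50% of base excision, 33.3% of mismatch and 42.9% of end-joining genes. Beside the 27.3% that were higher, the shares higher were 28.6%, 12.5%, 33.3%, 25%, 0%, 0% and 14.3% in the same order.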

How the data were processed

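RNA of 30 C2C12 libraries in 10 groups of 3 was sequenced after TRIzol extraction and TruSeq library preparation, per the labels' protocols. The authors deposited 1 table, named CPM in the labels, which is treated here as a signal: its columns summed to 892246 to 1079916, so a further scaling per library had been applied. Dividing each column by the value of 1 read returned whole numbers, to within 0.02, in 100% of cases. Which aligner, counter, build, strand setting and scaling were used is not given in the sources used here.

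The 12946 of 48709 genes that reached 1 scaled CPM in 3 or more libraries were tested with limma 3.58.1 (R 4.3.3) on log2(scaled CPM + 1), with a mean-variance trend, a mean per group over all 30 libraries and Benjamini-Hochberg adjustment over all genes, called below 0.05. The 11 comparisons were the 5 and 2 µM doses against 0 µM on each day, 5 against 2 µM on day 4, control days 1 and 4 against day 0, and the changes of the 5 µM difference between days. The tests were tried on simulated data first. The members and lists were chosen with earlier results of these data known. Values in every library are given for up to 3 genes per pathway with the largest day 4 difference among those called at 5 µM and for genes called against most of their list, and a few further sets of values (2 µM, day 1, Ddb2) were chosen after they were seen. Outside the 42, the named genes were Top2a, Ccna2, Pcna, Mcm5, Cdkn1a, Mdm2 and up to 2 called genes per further list with the largest day 4 difference, and Cdt1 was named after its value was seen. Single values of a few genes on the further lists are not reported here. Replicate numbers did not pair libraries (correlations of deviations of -0.0755 to 0.1278). Alternatives were filters of none or 5 scaled CPM, pseudocounts of 0.25 and 5, median-of-ratios scaling, only the groups compared, a replicate block, edgeR 4.0.16 and DESeq2 1.42.0 on recovered reads, each library left out, and both day 1 libraries that stood apart left out.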

Additional observations from a re-analysis of the deposited data

Results flagged for a closer look

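The results flagged were changes of the 5 µM difference between days that passed the limma test, in log2(scaled CPM + 1). From day 1 to day 2 the difference moved lower for Fancd2 by -1.89 ± 0.37 (adjusted p = 7.6e-04), Fanci by -1.50 ± 0.46 (0.048), Rad51ap1 by -1.86 ± 0.49 (0.016) and H2afx by -1.26 ± 0.36 (0.03). Without both day 1 libraries that stood apart, Fanci (-1.27, 0.14), Rad51ap1 (-1.60, 0.058) and H2afx (-0.98, 0.13) were no longer called. Leaving out single libraries ended the call of Fanci in 8 cases (adjusted p = 0.06 to 0.2), that of H2afx in 8 (0.052 to 0.14), and that of Rad51ap1 without control replicate 1 of day 2, 5 µM replicate 3 of day 1 or 5 µM replicate 1 of day 2 (0.061 to 0.067).

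From day 2 to day 4 the difference moved higher for Rbbp8 by 1.52 ± 0.28 (limma adjusted p = 1.1e-04) and for Chek1 by 1.57 ± 0.50 (0.019). It moved lower for Mre11a by -1.18 ± 0.22 (1.1e-04), Rad50 by -0.67 ± 0.23 (0.032), Lig3 by -0.96 ± 0.17 (5.2e-05), Xrcc5 by -0.77 ± 0.14 (8.3e-05) and Prkdc by -1.14 ± 0.30 (0.0042). Chek1 was no longer called when control replicate 2 of day 2, control replicate 3 of day 4, 5 µM replicate 1 of day 2 or 5 µM replicate 3 of day 4 was left out, with adjusted p of 0.056 to 0.057, and Rad50 was lost without any of 6 libraries, with -0.57 to -0.65. Groups of 3 libraries were too small for the search for outlying samples.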

How the results depend on the processing

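Median-of-ratios scaling kept all 150 called results on members, and the replicate block kept 147 of 150 (edgeR 135, DESeq2 144, only the groups compared 130). The counts of lower genes at 5 µM on days 2 and 4, and in the control course, stayed within 1.5 times under each alternative that kept all libraries. On day 1 at 5 µM the crosslink and recombination count of 0 became 2 with a pseudocount of 5 and 5 without both libraries, and the excision, mismatch and joining count of 2 became 1 with only the groups compared and 4 without both libraries. At 2 µM on day 1 the crosslink and recombination count of 1 became 0 with no filter, a pseudocount of 0.25, only the groups compared, the replicate block, edgeR, DESeq2 and without both libraries, and 2 with a pseudocount of 5. On day 2 it became 1 in place of 0 with a pseudocount of 5, and on day 4 it was 2 in place of 4 with edgeR. The excision, mismatch and joining count at 2 µM on day 4 was 1 in place of 0 with the filter of 5, a pseudocount of 5, median-of-ratios scaling and DESeq2. Between 5 and 2 µM the crosslink and recombination count of 5 was 2 with a pseudocount of 5, 3 with only the groups compared, 3 with edgeR and 4 with the replicate block. For the change from day 1 to day 2 the count of 3 was 1 with a pseudocount of 0.25, 1 without both libraries, 1 with edgeR, 5 with DESeq2 and 2 with the replicate block, and for day 2 to day 4 that of 0 was 1 with edgeR and with DESeq2. That gene was Fancd2, at 0.16 in limma and reversed to -4.12 in edgeR and -4.42 in DESeq2. On day 4 Fancd2 held 1 read at 5 µM and 243 in the controls, and log2(scaled CPM + 1) understates such a fall. The part of this in the reversal was not tested.

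With each library left out in turn, the crosslink and recombination counts ran from 0 to 5 (day 1), 9 to 10 (day 2) and 8 to 10 (day 4) at 5 µM, 0 to 1, 0 to 0 and 3 to 5 at 2 µM, 2 to 4 between doses, 16 to 16 and 16 to 17 in the control, and 1 to 4 and 0 to 0 for the changes. The excision, mismatch and joining counts ran from 1 to 3, 1 to 5 and 5 to 6 at 5 µM, 0 to 0, 0 to 0 and 0 to 1 at 2 µM, 5 to 6 between doses, 5 to 7 and 8 to 9 in the control, and 0 to 0 and 3 to 3 for the changes. Counts over all genes tested that moved by more than 1.5 times were those at 2 µM and on day 1 at 5 µM. At 2 µM the lower genes were 191 on day 1 (0 with only the groups compared, 87 without both libraries), 32 on day 2 (17 with no filter to 212 with only the groups compared) and 484 on day 4 (223 with only the groups compared), and the higher ones 67 (0 with only the groups compared to 206 with DESeq2), 34 (21 with no filter to 112 with only the groups compared) and 661 (222 with only the groups compared). On day 1 at 5 µM, 1218 lower and 556 higher genes became 655 and 200 with only the groups compared. Groups of 3 libraries and the scatter of genes near 20 reads limit what small differences of low genes such as Palb2, Mutyh and Ddb2 can show.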
